A study of Saccharomyces cerevisiae BY4741 with 238 samples.

Results

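Rapamycin and myriocin were compared at a similar degree of growth inhibition in the budding yeast Saccharomyces cerevisiae, strain BY4741, a haploid laboratory strain of mating type a with deletions in HIS3, LEU2, MET17 and URA3. The comparison took every well that held 1 of these drugs alone and grew at a relative growth rate of 0.35 to 0.66. That rule gave 11 rapamycin libraries and 11 myriocin libraries, 22 of the 238 libraries of the series, and no well with a drug pair was used. Drug-free wells, 11 libraries, were the common baseline for both drugs. The whole series crossed the growth inhibitors rapamycin, myriocin, cycloheximide and lithium chloride (LiCl) in pairs over robot-made concentration grids in YPD, a rich glucose medium, with repeated re-inoculation at 30 °C.

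The rapamycin wells held 0.00396 to 0.00662 µg/ml of the drug, with a median of 0.00583 µg/ml. The myriocin wells held 0.349 to 0.510 µg/ml, with a median of 0.449 µg/ml. Both drugs were added from stocks in DMSO, and the doses were set by growth, so they are not matched in amount. Relative growth inside the window ran from 0.356 to 0.598 in rapamycin wells, and no rapamycin-only well lay below it; the next one above grew at 0.754. It ran from 0.410 to 0.648 in myriocin wells, with the nearest wells outside the window at 0.331 and 0.693. Each library is 1 well of BY4741, wells of a grid were seeded from an overnight culture, and p-values therefore measure the spread between wells, which may share an inoculum.

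Rapamycin binds the small prolyl isomerase Fpr1, and the complex inhibits TOR complex 1, the kinase that in rich medium promotes ribosome synthesis and holds down genes for the use of poor nitrogen sources, the retrograde response and stress resistance. Myriocin inhibits serine palmitoyltransferase, the enzyme made of Lcb1 and Lcb2 with the small subunit Tsc3, which joins serine to palmitoyl-CoA in the first step of sphingolipid synthesis. Sphingolipids build the plasma membrane together with ergosterol, and their shortage is sensed by TOR complex 2 and its kinase Ypk1, with the Orm proteins as inhibitors of the pathway. The comparison asks how transcript levels differ between a cell slowed through TOR complex 1 and a cell slowed to about the same rate through its membrane lipids.

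Relative growth, by which the wells were chosen, was 0.506 ± 0.0793 in rapamycin wells and 0.541 ± 0.0841 in myriocin wells (SD, n = 11 each). The growth rate was 0.329 ± 0.0488 per hour with rapamycin, 0.346 ± 0.0561 per hour with myriocin and 0.652 ± 0.0289 per hour without drug (SD, n = 11 each). The final optical density (OD600) differed: 0.656 ± 0.0759 in rapamycin wells against 0.505 ± 0.109 in myriocin wells (SD, n = 11 each; permutation test, p = 0.00162). In drug-free wells it was 0.844 ± 0.365 (SD, n = 11), with a range of 0.553 to 1.4365. At the thresholds given below, a fit with final OD600 as a term called 498 of 5015 features between the drugs (9.93%; 5.1% higher and 4.83% lower with rapamycin), 486 of them shared with the fit without it.

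Values are the authors' normalised read levels, which have the same distribution in every library and show a transcript's share of the pool, not its amount per cell. In bulk samples like these, fewer cells of a kind and less RNA per cell cannot be told apart. The depth read back from the spacing of low values was 73470 to 1056873 reads per rapamycin library (median 548920) and 172720 to 674338 reads per myriocin library (median 423430), and log2 depth did not differ beyond its spread (permutation test, p = 0.981). Rapamycin replicates 8 and 9 were the shallowest, at 84276 and 73470 reads, and had 1487 and 1655 features at the lowest value. Of the strain's deletion markers, LEU2, MET17 and URA3 gave the floor value in each of the 22 libraries, while HIS3 had medians of 20.6 with rapamycin and 13.7 with myriocin. The summed level of 7 genes specific to MATa cells was 519 to 775 (median 591) with rapamycin, 271 to 504 (median 338) with myriocin and 406 to 723 (median 596) without drug; its part in the results was not tested. The summed level of 4 genes specific to MATalpha cells was 13.5 to 30.7 (median 20.2) with rapamycin and 11.3 to 27.3 (median 23.4) with myriocin. Of these, the alpha-factor gene MF(ALPHA)1, which a MATa cell should not express, was at the lowest value in 11 rapamycin and 10 myriocin libraries. The others were not all at the floor. MF(ALPHA)2 had medians of 12.8 with rapamycin and 9.79 with myriocin, SAG1 of 6.59 and 5.96, and STE3 of 1.75 and 2.56.

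The drug combination label, a prefix of the submitters' source names, differed between the drugs. Rapamycin libraries carried the labels MR (5), LR (4) and CR (2), and myriocin libraries carried MR (3), LM (7) and CM (1), so only MR held both. The rapamycin dose was 0.00396 to 0.00510 µg/ml under MR and 0.00583 to 0.00662 µg/ml under LR and CR. The first principal component of the 22 libraries took 23.3% of their variance and separated the drugs, and libraries of the other treatments, placed on the same axis, moved with the label too. Rapamycin libraries lay at 10.3 to 19.8 under all labels. Myriocin libraries lay at -3.8 to 0.4 under MR, but at -26.3 to -16.4 under LM and at -26.0 under CM. Drug-free libraries lay at -13.1 to -10.2 under LM, at -4.0 to -0.6 under CM and at 0.6 to 9.3 under the labels MR, LR, CR and CL. The label was therefore a term of the fit, and values within MR stand beside the main ones; within MR, relative growth was 0.474 ± 0.0955 with rapamycin (SD, n = 5) and 0.585 ± 0.0283 with myriocin (SD, n = 3).

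**Figure D1:**
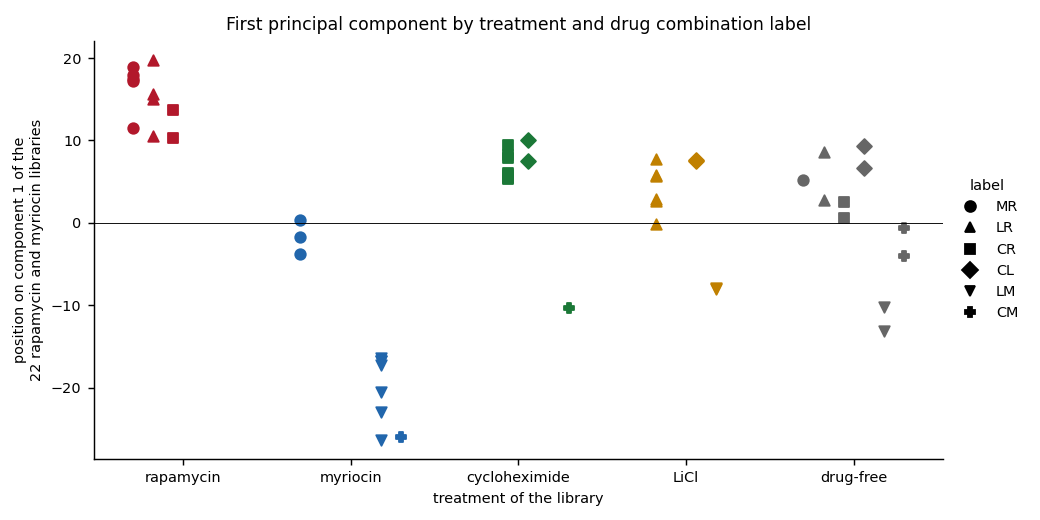
Position of each library on the first principal component of the 22 rapamycin and myriocin libraries, computed on log2(value + 1), by treatment (horizontal axis) and drug combination label (marker shape). Myriocin libraries of label MR lie between -3.8 and 0.4, apart from those of LM (-26.3 to -16.4), and drug-free libraries of LM also lie lower than those of other labels.

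Of 5015 features tested, 504 (10%) differed between rapamycin and myriocin at an adjusted p under 0.05 and at least 1.5-fold, the rule meant below by "rose" or "fell" and by "called". With rapamycin, 260 features (5.18%) were higher and 244 (4.87%) were lower than with myriocin. The fit was limma's moderated test on log2(value + 1) with Benjamini-Hochberg adjustment, over 53 libraries and with terms for label and growth-reference set, and every log2 difference below is on that scale, rapamycin minus myriocin unless another contrast is named. Within the MR label, without those terms, 439 features (8.75%) were called, 257 higher (5.12%) and 3.63% of all features lower, and 317 of them were also called in the main comparison. The shares of 5.12% and 3.63% are those of all features for the list counts within MR below. The level of 67 features (1.34%) was higher in every rapamycin library than in any myriocin library, and the level of 22 (0.439%) was lower in every one (1.77% in either direction). A limma interaction test of the difference between the growth-reference sets called 0 features, with 160 at an unadjusted p under 0.05. Among the 22 libraries alone, with the same terms, 3.63% of features were called. Shallow libraries were those under 0.25 of the median depth of the series. Among the 53 these were rapamycin replicates 8 and 9, cycloheximide replicates 3 and 4 and LiCl replicate 10. Without these shallow libraries 644 (12.8%) were called, 455 of them shared with the main comparison, and of the 69 called genes followed below all were called.

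None of the genes for the drugs' direct targets was called. LCB1, a subunit of serine palmitoyltransferase, had values of 55.9 to 89.8 (median 76.3) with rapamycin, 54.7 to 109 (median 76.4) with myriocin and 42.1 to 94.9 (median 74.9) without drug. These ranges overlapped almost fully, and its log2 difference was -0.30 ± 0.13 (SE; limma, adjusted p = 0.0911). LCB2 and TSC3 differed by -0.24 ± 0.151 and -0.28 ± 0.139 (SE; limma, adjusted p = 0.289 and 0.160). ORM1, an inhibitor of the enzyme, differed by -0.19 ± 0.197 (adjusted p = 0.555). Its paralog ORM2 was called lower with rapamycin, by -0.61 ± 0.156 (limma, adjusted p = 0.00279): its values were 42.8 to 105 (median 72.1) with rapamycin, 87.3 to 173 (median 109) with myriocin and 69.5 to 161 (median 110) without drug. The ORM2 call was lost when rapamycin replicate 3 or 7, myriocin replicate 1, 9 or 10, or LiCl replicate 1 was left out, within the higher growth-reference set and with a pseudocount of 10, and within the MR label the difference was -0.88 (adjusted p = 0.00354).

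Among 21 sphingolipid synthesis genes 1 fell (4.8%, against 4.87% of all features), SUR4, a fatty acid elongase (log2 -0.59). In this list 19 lay below 0, with a median of -0.24 against -0.03 over all features tested. Within MR none was called and the median was -0.16. The SUR4 call sat at the fold limit and held in 34 of 53 fits that each left out 1 library. On the TOR side, TOR1 differed by 0.12 ± 0.247, TOR2 by 0.08 ± 0.148 and FPR1, the rapamycin receptor, by -0.14 ± 0.0864 (SE; limma, adjusted p = 0.779, 0.761 and 0.264). YPK1, the TOR complex 2 effector kinase, differed by -0.07 ± 0.0895 (adjusted p = 0.616), and URE2, the cytoplasmic anchor of the nitrogen GATA factors, by -0.06 ± 0.308 (adjusted p = 0.925). In the list of TOR complex 1 and its effectors, 2 of 23 tested genes rose (8.7%, against 5.18% of all features), NPR1 (0.66) and PIB2 (0.59), and none fell. The PIB2 call held in 36 of 53 such fits. GLN3, the GATA factor itself, was below the level needed for a test.

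Nitrogen catabolite genes gave some of the largest differences, as a subset and not as a whole list. In rich medium GATA factors such as Gln3 are kept from these genes through TOR complex 1 and Ure2, and their sites carry the core GATAAG. Stretches from upstream of GAP1, the general amino acid permease, and DAL3, ureidoglycolate lyase of allantoin use, are shown as the pair of list members with the largest differences; capitals mark GATAAG on either strand.

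GAP1 (R64, chrXI:514698-514797, plus strand): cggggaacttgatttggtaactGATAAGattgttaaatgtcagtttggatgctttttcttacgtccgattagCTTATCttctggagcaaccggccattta
DAL3 (R64, chrIX:415718-415817, minus strand): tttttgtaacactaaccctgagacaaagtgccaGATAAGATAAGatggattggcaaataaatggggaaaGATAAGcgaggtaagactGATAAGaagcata

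The windows searched ran from 500 to 101 bases before the open reading frame, and matches are descriptions, not sites shown to be used. GATAAG was in 73.9% of the windows of the nitrogen list (17 of 23), in 30.4% of those of genes higher with rapamycin, in 18.8% of those lower, and in 18.2% of all 4730 windows. GAP1 had values of 29.3 to 202 (median 112) with rapamycin, 7.87 to 29.7 (median 17.5) with myriocin and 10.2 to 29.6 (median 18.8) without drug. The rapamycin and myriocin ranges met only at the shallow rapamycin library with 29.3. GAP1 was 5.15-fold higher with rapamycin than with myriocin, a log2 difference of 2.36 ± 0.297 (SE; limma, adjusted p = 4.12e-08), and 2.40 within the MR label. In the 5 rapamycin libraries of MR it stood at 124, 62.1, 153, 202 and 181.6, against 29.7, 28.5 and 17.6 in the 3 myriocin libraries of MR, with no overlap.

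MEP2, the high-affinity ammonium permease, had 18.7 to 125 (median 61.5) with rapamycin, 1.21 to 14.5 (median 6.74) with myriocin and 2.51 to 12 (median 4.84) without drug. No rapamycin library overlapped a myriocin library, and the log2 difference was 2.22 ± 0.374 (limma, adjusted p = 1.56e-05; 2.80 within MR). DAL3 had 18.7 to 59.8 (median 37.9) with rapamycin, 3.54 to 16.4 (median 7.17) with myriocin and 0.891 to 11 (median 4.37) without drug, again with no overlap between the drugs, and a log2 difference of 2.30 ± 0.332 (limma, adjusted p = 1.01e-06; 2.51 within MR). GDH3, the glutamate dehydrogenase of non-fermentative growth, was also higher, by 1.89 (47.1 to 172 against 19.4 to 54.6). In all, 9 of the 23 tested nitrogen genes rose (39.1%, against 5.18% of all features) and none fell. The 9 were CPS1, DAL2, DAL7, DUR3, DAL5, GDH3, MEP2, DAL3 and GAP1. The list's median difference was 0.28 against -0.03 over all features, and 16 of the 23 lay above 0; 4 members, DAL1, DAL4, PUT4 and UGA4, were below the level needed for a test. Within MR, 9 rose and 1 fell, with a median of 0.31. The CPS1 call (0.86) was lost within the lower growth-reference set.

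**Figure D2:**
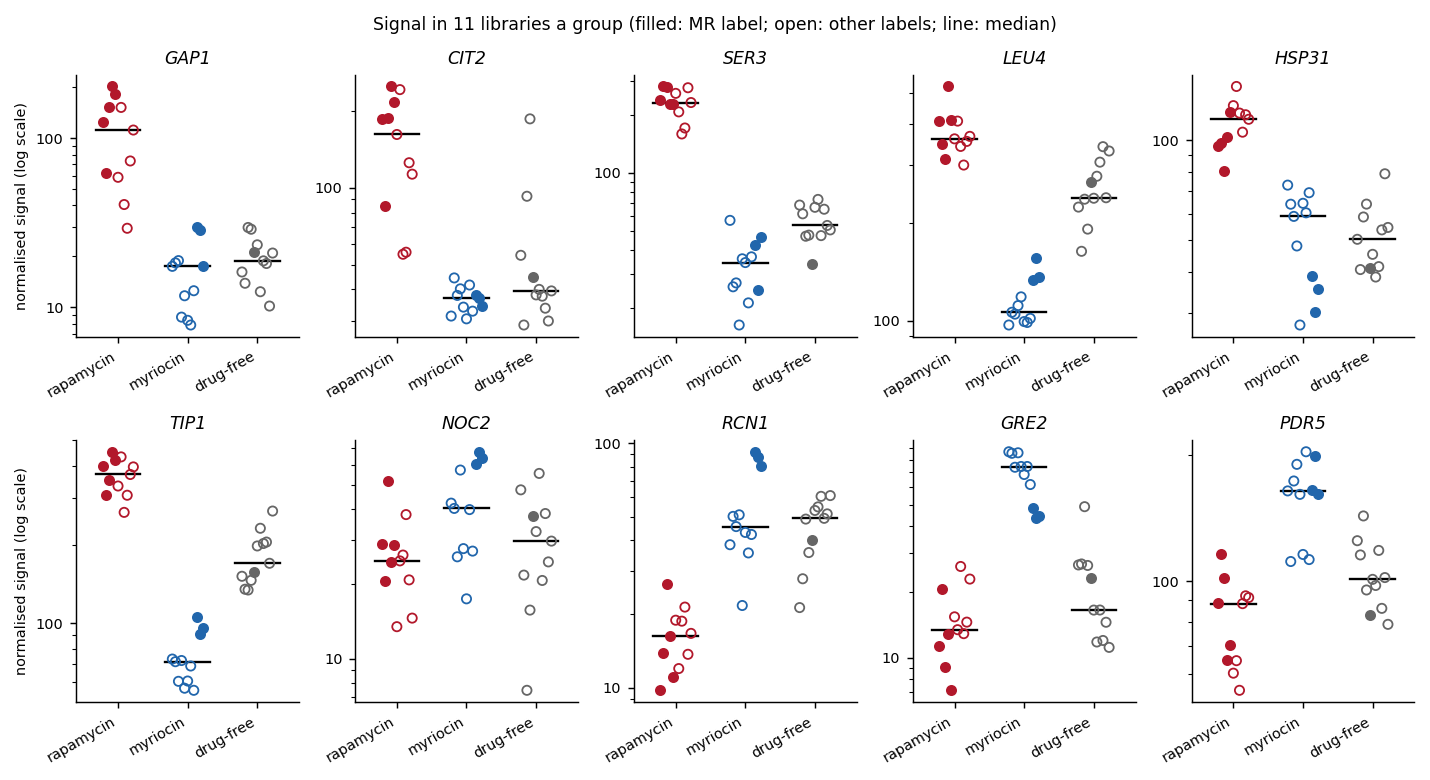
Normalised signal (log axis) of 10 named genes in each rapamycin, myriocin and drug-free library, 1 point per library; filled points are of the MR label and the line is the median. CIT2, SER3 and GRE2 do not overlap between the 11 rapamycin and 11 myriocin libraries, and GAP1, RCN1 and PDR5 meet at their edges.

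Retrograde genes rose in a small subset as well. This pathway, named for signals from the mitochondrion to the nucleus, uses the factors Rtg1 and Rtg3, which bind the core GTCAC upstream of genes such as CIT2, DLD3 and PYC1 that help to supply 2-oxoglutarate for glutamate synthesis. Stretches from upstream of CIT2, the peroxisomal citrate synthase, and DLD3, a 2-hydroxyglutarate transhydrogenase, are shown as the pair of members with the largest differences; capitals mark GTCAC on either strand.

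CIT2 (R64, chrIII:122605-122704, minus strand): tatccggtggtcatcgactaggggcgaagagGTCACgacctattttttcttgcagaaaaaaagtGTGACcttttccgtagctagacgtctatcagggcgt
DLD3 (R64, chrV:16155-16254, plus strand): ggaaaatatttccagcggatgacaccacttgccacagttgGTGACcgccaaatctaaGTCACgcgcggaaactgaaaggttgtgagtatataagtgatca

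GTCAC was in 76.9% of the windows of the retrograde list (10 of 13) and in 37.3% of all windows, so a match alone is common. CIT2 had 54.9 to 250 (median 162) with rapamycin, 30.6 to 44.3 (median 37) with myriocin and 29 to 186.3 (median 39.4) without drug. Every rapamycin library was above every myriocin library, while the drug-free range overlapped both. The drug-free level moved with the label, at 92.7 and 186.3 under LM and 30.1 to 39.4 under LR and CR. CIT2 was 4.92-fold higher with rapamycin, a log2 difference of 2.30 ± 0.276 (SE; limma, adjusted p = 1.17e-08), and 2.23 within MR, where the 5 rapamycin libraries had 186.5, 85, 187.7, 250 and 217 and the 3 myriocin libraries had 38, 37 and 34.5. DLD3 had 121 to 470 (median 229) with rapamycin and 14 to 79.4 (median 42.9) with myriocin, without overlap (log2 2.17 ± 0.226; limma, adjusted p = 1.94e-10). PYC1, a pyruvate carboxylase that refills the citric acid cycle, had 55.9 to 336 against 46.6 to 98.8 and rose by 1.62. With CIT1, these were the 4 of 13 list members that rose (30.8%, against 5.18% of all features). None fell, and the median was 0.08. The CIT1 call held in 39 of 53 fits that each left out 1 library. DIC1, the mitochondrial dicarboxylate carrier and no member of the list, had 37.9 to 94.2 (median 70.5) with rapamycin and 11.8 to 26.6 (median 20.1) with myriocin, without overlap (1.65).

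Serine genes moved in opposite directions. SER3, 3-phosphoglycerate dehydrogenase at the start of serine synthesis, had 159 to 280 (median 231) with rapamycin, 16.4 to 57 (median 34.5) with myriocin and 33.8 to 73.1 (median 53.6) without drug. All 11 rapamycin libraries were above all myriocin and drug-free libraries. SER3 was 5.58-fold higher with rapamycin than with myriocin (log2 2.48 ± 0.235; limma, adjusted p = 9.72e-12; 2.73 within MR). Its annotation overlaps a noncoding RNA gene, YNCE0017W, and reads of the pair may not be told apart. CHA1, the serine and threonine deaminase that cells use to degrade these amino acids, had 20.6 to 78.7 (median 35.5) with rapamycin, 77.3 to 145 (median 98.3) with myriocin and 29.7 to 84.3 (median 38.8) without drug. The drugs' CHA1 ranges overlapped only between 77.3 and 78.7, and the log2 difference was -1.33 ± 0.203 (limma, adjusted p = 3.26e-06; -1.64 within MR). MTD1, a folate dehydrogenase of one-carbon metabolism, was also lower with rapamycin, by -0.92. Of 15 serine and glycine genes, 1 rose (6.7%, against 5.18% of all features) and 3 fell (20.0%, against 4.87%), with a median of -0.32.

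Genes for making and importing several amino acids were higher with rapamycin, and for most of those named the myriocin minus drug-free difference was below 0. In arginine synthesis, 5 of 9 genes rose (55.6%, against 5.18% of all features) and none fell. The median was 0.91 (1.28 and 6 called within MR). ARG4, argininosuccinate lyase, had 79.8 to 177.3 (median 130) with rapamycin, 20.8 to 44.4 (median 32.4) with myriocin and 33.2 to 142 (median 94.5) without drug. The drugs did not overlap, and the log2 difference was 1.11 ± 0.223 (limma, adjusted p = 0.000189), smaller than the 1.87 within MR. The drug-free level of ARG4 itself depended on the label, at 33.2 to 43.6 under LM and CM and 95.5 to 142 under LR and CR. CPA1, which acts in carbamoyl phosphate synthesis, and ARG7, ornithine acetyltransferase, also did not overlap and rose by 1.17 and 0.91. The core of the Gcn4 site, TGACTC, was in 88.9% of the arginine windows (8 of 9), against 16.6% of the windows of genes higher with rapamycin and 10.7% of all windows.

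LEU4, isopropylmalate synthase of leucine synthesis, had 300 to 523 (median 361) with rapamycin, 97.1 to 156 (median 106) with myriocin and 163 to 342 (median 238) without drug. The drugs did not overlap and its spread was small (log2 1.34 ± 0.110; limma, adjusted p = 1.17e-13; 1.47 within MR). BAT2, the cytosolic branched-chain aminotransferase, had 191.2 to 523 (median 448) against 157 to 244 (median 186.3) and rose by 1.06. LEU4 and BAT2 were the 2 called members of 12 in leucine, isoleucine and valine synthesis (16.7%, against 5.18% of all features). The list's median was 0.04.

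Of 16 amino acid and peptide permeases, 7 rose (43.8%, against 5.18% of all features) and none fell (median 0.48, with 5 called within MR). PTR2, the di- and tripeptide transporter, had 50.1 to 112 (median 71.6) with rapamycin, 10.6 to 40.7 (median 19.4) with myriocin and 35.1 to 57.9 (median 48.4) without drug. AGP1, a broad amino acid permease, had 232 to 398 (median 278) with rapamycin, 85.8 to 169 (median 118) with myriocin and 204 to 356 (median 279) without drug. Neither overlapped between the drugs, and they differed by 1.58 ± 0.340 and 1.18 ± 0.167 (SE; limma, adjusted p = 0.000456 and 6.35e-07). The rapamycin level of AGP1 was close to the drug-free level, with a rapamycin minus drug-free difference of -0.11 and a myriocin minus drug-free difference of -1.29. DIP5, the dicarboxylic amino acid permease, rose by 1.56, a call lost within the lower growth-reference set.

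Sulfur genes rose as a group of 9 of 31, while 1 fell, with a median of 0.27 (7 higher and none lower within MR). MET16, PAPS reductase of sulfate assimilation, had 42.8 to 95.4 (median 57) with rapamycin and 10.6 to 41.7 (median 29.6) with myriocin, without overlap (log2 0.98 ± 0.226; limma, adjusted p = 0.000977). MET10, a sulfite reductase subunit, STR3, a cystathionine beta-lyase, and MMP1, the S-methylmethionine permease, rose by 1.04, 1.26 and 1.34. The E box CACGTG, the core bound by Cbf1 with Met4, was in 67.7% of the sulfur windows (21 of 31) and in 6.11% of all windows.

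**Figure D3:**
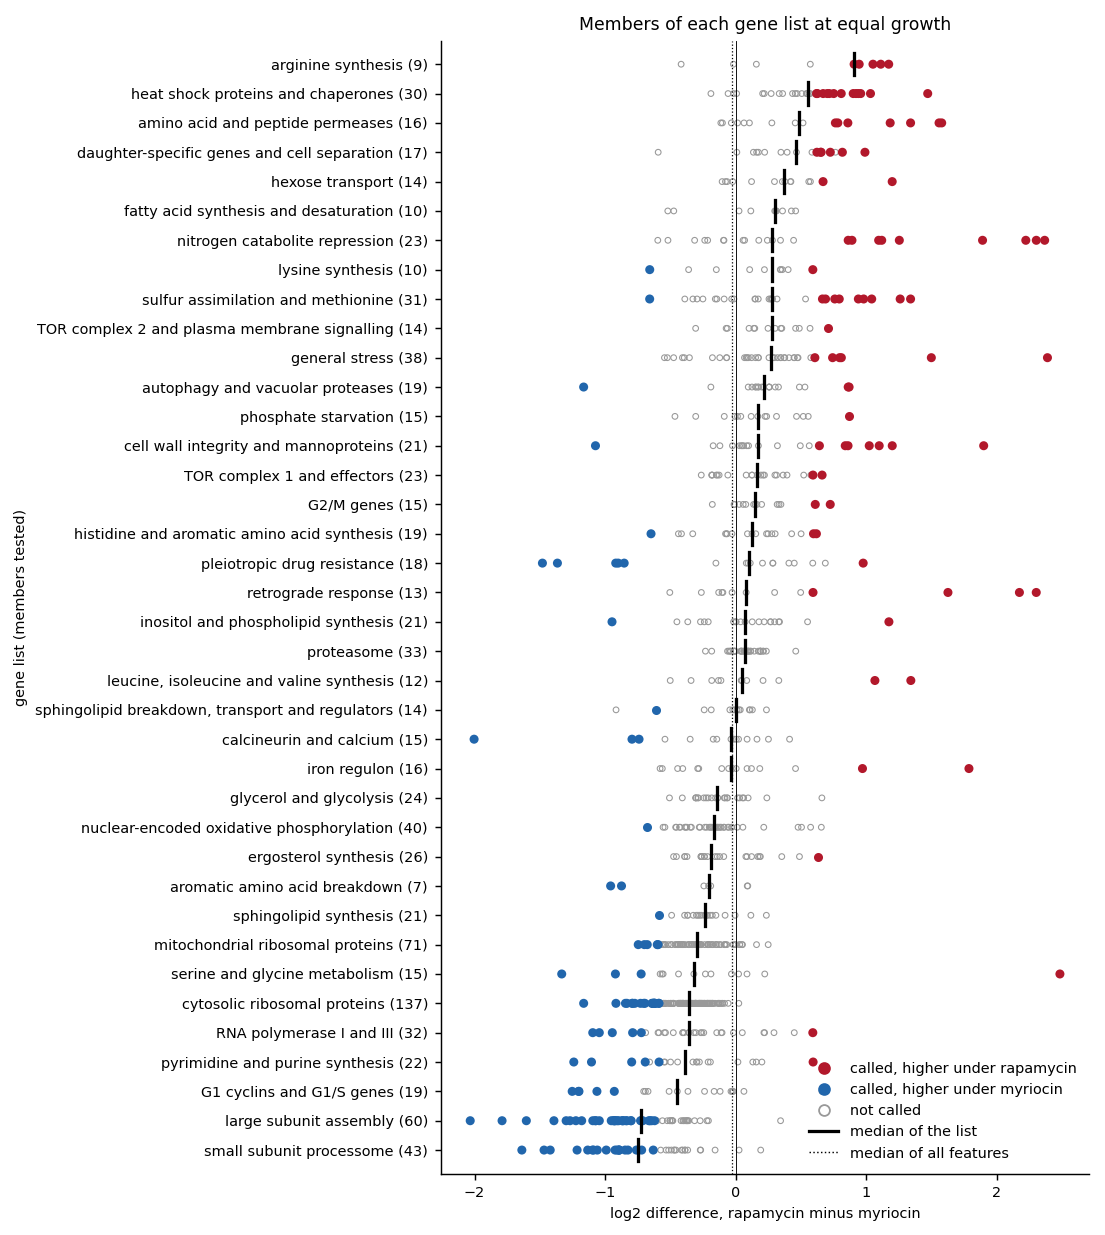
Rapamycin minus myriocin log2 difference for each tested member of the gene lists, 1 point per gene, with called genes filled, a bar at each list's median and a dotted line at the median of all features. Heat shock, arginine and permease genes lie mostly above 0, and the small subunit processome and large subunit assembly genes lie mostly below 0, with medians of -0.75 and -0.73.

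Chaperone genes were higher with rapamycin, by modest folds. Of 30 heat shock genes, 13 rose (43.3%, against 5.18% of all features) and none fell. In this list 27 lay above 0, and the median was 0.56 against -0.03 over all features. Within MR 14 rose and the median was 0.54. HSP31, a chaperone and methylglyoxalase, had 80.6 to 145 (median 116) with rapamycin, 27.7 to 73.2 (median 58.9) with myriocin and 38.6 to 79.2 (median 50.2) without drug. All rapamycin libraries were above all myriocin and drug-free ones (log2 1.47 ± 0.190; limma, adjusted p = 8.96e-08). STI1, the Hsp90 cochaperone, had 221 to 400 against 127 to 268 and rose by 0.81, and SIS1, a type II Hsp40, had 336 to 550 against 227 to 318, without overlap, and rose by 0.70. HSP42, a small heat shock protein, rose by 0.90; the calls for SIS1 and HSP42 were lost within the lower growth-reference set. Of 38 general stress genes, 6 rose (15.8%, against 5.18% of all features) and none fell, with a median of 0.27. The stress element AGGGG was in 39.9% of the windows of genes higher with rapamycin and in 30.0% of all windows. SPG4, a stationary phase gene, had 37.9 to 139 (median 85.1) against 9.81 to 61.2 (median 24.1) and rose by 2.39, and it ranged from 4.84 to 167 without drug. None of 33 proteasome genes was called, with a median of 0.07.

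Genes for assembling the ribosome were lower with rapamycin than with myriocin as a broad group. Ribosome assembly genes share the promoter elements PAC (GCGATGAG) and RRPE. Stretches from upstream of IMP4, a protein of the U3 small nucleolar particle, and CGR1, a factor for large subunit rRNA processing, are shown as named members that hold a match in the window; capitals mark PAC and RRPE on either strand.

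IMP4 (R64, chrXIV:485407-485506, plus strand): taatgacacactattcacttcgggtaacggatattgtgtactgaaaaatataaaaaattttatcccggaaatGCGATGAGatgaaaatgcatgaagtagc
CGR1 (R64, chrVII:439863-439962, plus strand): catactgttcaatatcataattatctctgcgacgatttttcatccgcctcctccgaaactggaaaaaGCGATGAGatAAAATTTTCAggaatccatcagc

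PAC was in 41.9% of the small subunit windows (18 of 43) and 41.7% of the large subunit windows (25 of 60), against 14.8% of the windows of all genes lower with rapamycin, 1.98% of those higher and 3.89% of all windows. RRPE was in 25.6% and 28.3% of the same lists' windows and in 2.79% of all windows. RSA4, SSF1, NOC2 and RLP7 held neither in the stretch searched.

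Of 43 tested genes of the small subunit processome, 20 fell and none rose, with a median of -0.75, and of 60 large subunit assembly genes, 33 fell and none rose, with a median of -0.73. Within MR, 11 and 20 fell, with medians of -0.63 and -0.65. Most of the gap lay on the myriocin side of the drug-free level: the lists' rapamycin minus drug-free medians were -0.11 and -0.02, and their myriocin minus drug-free medians were 0.65 and 0.69. IMP4 had 2.48 to 19 (median 11.7) with rapamycin, 18.5 to 45.8 (median 25.1) with myriocin and 4.16 to 24.1 (median 11.9) without drug. Its ranges barely met, and the log2 difference was -1.42 ± 0.294 (limma, adjusted p = 0.000268; -1.02 within MR). CGR1 had 5.64 to 33.7 (median 17.7) against 25.6 to 76.4 (median 38.2) and fell by 1.18. NOC2, a pre-60S export factor, had 13.5 to 51.6 (median 24.7) with rapamycin, 17.4 to 67.8 (median 40.1) with myriocin and 7.48 to 55.5 (median 29.7) without drug, which overlap broadly, and a log2 difference of -1.22 ± 0.242 (limma, adjusted p = 0.000154).

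Most of these transcripts were rare, so a few reads decide a value. SSF1, a large subunit assembly factor, had 2.02 to 12.9 (median 6.14) with rapamycin and 5.90 to 28.1 (median 21.3) with myriocin (log2 -1.79 ± 0.361; limma, adjusted p = 0.000200). RSA4, another such factor, was at the lowest value in 3 rapamycin libraries; its difference was -2.03, and within MR it was -1.22 and not called (adjusted p = 0.0680). RLP7 and UTP5 fell by 1.07 and 1.06. Of 32 genes of RNA polymerases I and III, 5 fell (15.6%, against 4.87% of all features) and 1 rose (3.1%, against 5.18%), with a median of -0.36. Within MR 2 were lower, where 3.63% of all features were. RPA34, a polymerase I subunit, was at -1.09.

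The proteins of the ribosome itself moved less. Of 137 cytosolic ribosomal protein genes, 20 fell (14.6%, against 4.87% of all features) and none rose. In this list 136 lay below 0, and the median was -0.36 (11 lower and -0.29 within MR). Many of these genes are near-identical pairs, so levels of single copies are uncertain. Of 71 mitochondrial ribosomal protein genes, 5 fell (7.0%, near the 4.87% of all features), 64 lay below 0 and the median was -0.30. MRPL40 had 15.8 to 40.5 (median 25.4) with rapamycin and 33.9 to 62.7 (median 44.8) with myriocin and fell by 0.70, and MRPL31 fell by 0.75, which within MR was -0.76 and not called (adjusted p = 0.0734).

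Several wall and cell separation genes were higher with rapamycin. TIP1, a wall mannoprotein, had 265 to 452 (median 370) with rapamycin, 55.6 to 106 (median 71.5) with myriocin and 134 to 268 (median 170) without drug. The 3 groups hardly overlapped, with drug-free libraries in between (log2 1.90 ± 0.147; limma, adjusted p = 2.66e-14; 1.96 within MR). BGL2, a wall glucanase, had 288 to 472 (median 425) with rapamycin and 134 to 191.5 (median 157) with myriocin, and SED1, a structural wall glycoprotein, had 308 to 393 (median 338) against 128 to 204 (median 143). Neither overlapped, and they rose by 1.10 and 0.86. PRM5, a target of the wall integrity pathway, had 12.9 to 118 (median 87.5) with rapamycin, 7.18 to 26.6 (median 10.8) with myriocin and 26.8 to 57.7 (median 35.7) without drug (log2 2.08 ± 0.356; limma, adjusted p = 1.84e-05). Of 21 wall genes 7 rose (33.3%, against 5.18% of all features) and 1 fell (4.8%, against 4.87%), with a median of 0.17.

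Of 17 daughter-specific and cell separation genes, 6 rose (35.3%, against 5.18% of all features) and none fell. In this list 16 lay above 0 and the median was 0.46, with the same 6 and 0 counts within MR. CTS1, the chitinase that separates mother and daughter, had 324 to 454 (median 378) with rapamycin, 114 to 231 (median 162) with myriocin and 204 to 354 (median 322) without drug, and rose by 0.82 ± 0.0964 (SE; limma, adjusted p = 9.03e-09). DSE4, a daughter glucanase, had 29.3 to 108 against 18.9 to 45.2 and rose by 0.99. Among 19 G1 cyclins and G1/S genes, 5 fell (26.3%, against 4.87% of all features) and none rose (median -0.45, with 7 lower within MR). TOS2, which acts at the bud neck, had 12.9 to 41 (median 28.7) with rapamycin and 50.0 to 114 (median 64.2) with myriocin, without overlap, and fell by 1.06.

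Genes lower with rapamycin than with myriocin also included detoxification, calcium and aldehyde genes. Of 18 pleiotropic drug resistance genes, 5 fell (27.8%, against 4.87% of all features), RTA1, GRE2, ICT1, PDR16 and PDR5. In the same list 1 rose (5.6%, against 5.18%), PDR1 (0.98), and the median was 0.10. PDR5, the main multidrug efflux pump, had 54.9 to 116 (median 88.4) with rapamycin, 111 to 204 (median 164) with myriocin and 78.9 to 143 (median 101) without drug. The ranges met at their edges, and the difference was -0.85 ± 0.167 (limma, adjusted p = 0.000127; -1.0 within MR). RTA1 and PDR16, a phosphatidylinositol transfer protein, fell by 1.48 and 0.90; within MR, PDR16 differed by -0.55, under the 1.5-fold limit. GRE2, a methylglyoxal reductase, had 7.11 to 26.1 (median 13.4) with rapamycin, 43.5 to 87 (median 73.9) with myriocin and 11.2 to 48.9 (median 16.5) without drug. Its drug-free level was 26.4 to 48.9 under LM and CM and 11.2 to 16.5 under LR and CR. No rapamycin library overlapped a myriocin library, and the difference was -1.37 ± 0.332 (limma, adjusted p = 0.00176; -1.89 within MR). YOL150C, an open reading frame beside GRE2 that the annotation used here does not hold, had 2.02 to 20.9 against 34.9 to 76.4, a difference of -1.62, and its reads may be shared with GRE2.

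RCN1, the calcineurin regulator that is itself a calcineurin target, had 9.76 to 26.6 (median 16.2) with rapamycin, 21.7 to 92.1 (median 45.5) with myriocin and 21.2 to 61 (median 49.2) without drug. The drugs' ranges overlapped in their edges, and RCN1 differed by -2.0 ± 0.226 (limma, adjusted p = 2.42e-09). Within MR the 5 rapamycin libraries had 9.76, 13.9, 26.6, 16.2 and 11.1 and the 3 myriocin libraries had 92.1, 87.3 and 80.8, a difference of -2.49. Of 15 calcineurin and calcium genes, 3 fell (20.0%, against 4.87% of all features) and none rose, with a median of -0.04. The 3 were RCN1, CRZ1, the transcription factor, and CMK2, a calmodulin kinase (-0.74).

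ALD6, the cytosolic acetaldehyde dehydrogenase, had 9.14 to 23.4 (median 13.9) with rapamycin, 87.3 to 172 (median 117) with myriocin and 9.05 to 375 (median 46.6) without drug. The drugs were far apart, at -1.78 ± 0.369 (limma, adjusted p = 0.000266) and -2.58 within MR. The drug-free level of ALD6 moved with the label, from 46.6 to 375 under LM and CM and from 20.6 to 69.8 under LR and CR. BDH2, a putative butanediol dehydrogenase, had 31.9 to 127 (median 48.5) against 158 to 409 (median 222), without overlap, with a difference of -1.51 (-2.42 within MR). Without drug BDH2 had 49.6 to 361, with 107 to 361 under LM and CM and 49.6 to 100 under LR and CR.

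YOR385W, of unknown function, had 9.07 to 29.3 with rapamycin and 37 to 108 with myriocin, and NCE103, the carbonic anhydrase, had 11 to 37.9 against 39.5 to 130. Neither overlapped, and they fell by 1.96 and 1.21. DIA1, which overlaps YMR316C-A in the annotation, fell by 1.24, and ATG5, a core autophagy conjugation gene, fell by 1.16. Of 19 autophagy and vacuolar protease genes, ATG5 alone fell (5.3%, against 4.87% of all features). In that list 2 rose (10.5%, against 5.18%) and 17 lay above 0, with a median of 0.21. URA1, dihydroorotate dehydrogenase, had 55.5 to 115 (median 75) against 110 to 172 (median 149) and fell by 1.10. Of 22 purine and pyrimidine genes 5 fell (22.7%, against 4.87% of all features) and 1 rose (4.5%, against 5.18%), with a median of -0.39. ARO10 and ARO9, a decarboxylase and an aminotransferase of aromatic amino acid breakdown, fell by 0.96 and 0.87. They were the 2 called of 7 (28.6%, against 4.87% of all features), with a list median of -0.21.

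The largest difference of all features tested was that of YJL133C-A, a short open reading frame for a mitochondrial protein of unknown function. It had 177.2 to 577 (median 306) with rapamycin, 14 to 66.3 (median 35.1) with myriocin and 19.9 to 170 (median 44.2) without drug. All rapamycin libraries were above all others, 8.90-fold over myriocin (log2 3.15 ± 0.288; limma, adjusted p = 2.91e-12; 2.96 within MR). HXT3, a low-affinity glucose transporter with close paralogs, had 458 to 871 (median 666) with rapamycin, 169 to 352 (median 228) with myriocin and 327 to 530 (median 407) without drug, and rose by 1.20 ± 0.123 without overlap between the drugs. FIT3 and FIT2, wall mannoproteins that retain iron siderophores, had 54.9 to 586 against 49.7 to 110 and 47.1 to 149 against 24.2 to 72.4, and rose by 1.78 and 0.97. They were the 2 called of 16 iron genes (12.5%, against 5.18% of all features). Of the 16, 9 lay below 0, and the median was -0.04. OPI3, a phosphatidylcholine synthesis methyltransferase, had 145 to 496 against 98.3 to 230 and rose by 1.17. None of 24 glycerol and glycolysis genes and none of 10 fatty acid synthesis genes was called.

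Both drugs were also set against the drug-free libraries, which the contrasts share, so their values are only given side by side. Final OD600, which varied widely between drug-free wells, was no term of these contrasts, and its part in them was not tested. Against no drug, rapamycin called 268 features (5.34%; 2.93% higher, 2.41% lower) and myriocin 362 (7.22%; 3.53% higher, 3.69% lower). GAP1 was at 1.88 for rapamycin minus drug-free and -0.48 for myriocin minus drug-free, MEP2 at 2.68 and 0.46, and DAL3 at 2.88 and 0.58. SER3 was at 1.90 and -0.58, and HSP31 at 1.23 and -0.24. These differences lay mainly on the rapamycin side, while CIT2, at 1.40 and -0.90, lay on both sides. LEU4 was at 0.30 and -1.04, STR3 at -0.15 and -1.40, DIP5 at -0.05 and -1.61, and CTS1 at 0.14 and -0.68, which lay mainly on the myriocin side.

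TIP1 at 0.78 and -1.12, and HXT3 at 0.49 and -0.70, also lay on both sides. Among genes lower with rapamycin, RCN1 was at -1.65 and 0.35, CMK2 at -0.80 and -0.06, ARO9 at -1.60 and -0.73 and ALD6 at -1.26 and 0.52. GRE2 was at 0.07 and 1.43, CHA1 at -0.35 and 0.98, NCE103 at 0.14 and 1.35, SSF1 at 0.16 and 1.95 and PDR5 at -0.30 and 0.56. Of the small subunit processome 1 gene was higher and none lower in rapamycin minus drug-free, against 17 higher and none lower in myriocin minus drug-free, where 3.53% of all features were higher; of large subunit assembly, none higher and 1 lower, against 29 higher and none lower. Heat shock genes had 14 higher in rapamycin minus drug-free, where 2.93% of all features were higher, and none higher in myriocin minus drug-free. The sulfur list had medians of -0.03 and -0.30, the permeases 0.04 and -0.27, and the daughter and separation genes -0.06 and -0.52.

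**Figure D4:**
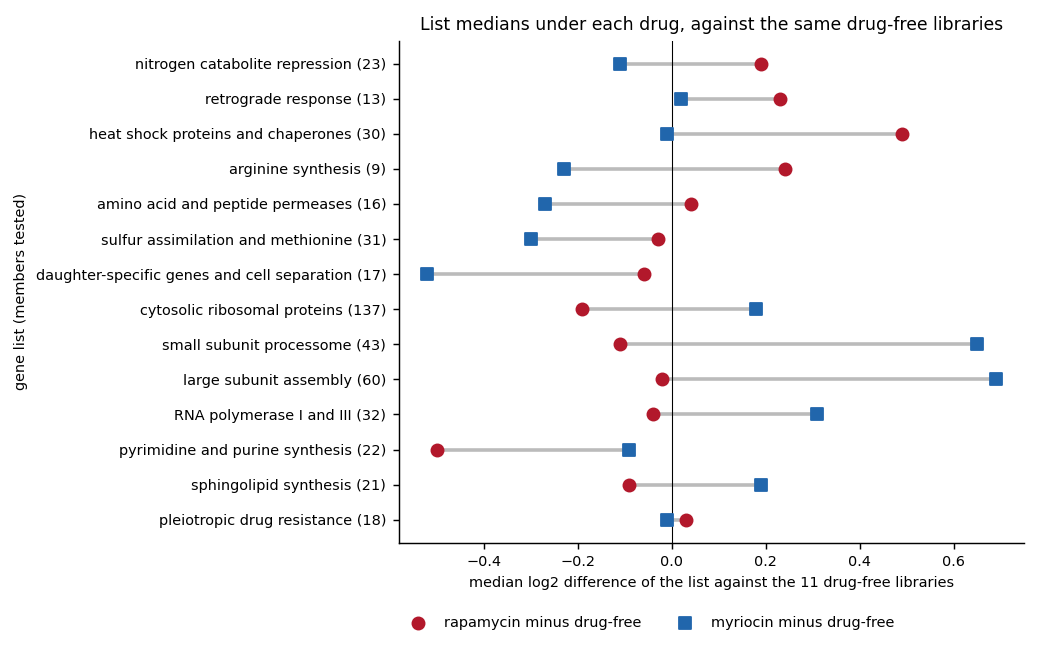
Median log2 difference of each gene list for rapamycin minus drug-free (circles) and myriocin minus drug-free (squares), which share the 11 drug-free libraries. The small subunit processome and large subunit assembly lists lie near 0 for rapamycin (-0.11 and -0.02) and above it for myriocin (0.65 and 0.69), and heat shock genes lie at 0.49 and -0.01.

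Wells outside the window showed which of these differences are also found at milder inhibition. Relative growth was 0.754 to 0.962 in 5 rapamycin-only libraries, all of label MR, and 0.693 to 0.931 in 8 myriocin-only libraries, 7 of LM and 1 of MR. These wells held 0.00307 to 0.00396 µg/ml of rapamycin or 0.210 to 0.396 µg/ml of myriocin. The split is by growth, and these doses overlap those of the main wells. Final OD600 was 0.614 to 1.8785 in these rapamycin wells and 0.443 to 1.0655 in these myriocin wells. The fits at milder inhibition had no OD600 term, and its part in them was not tested. Without a label term, 449 features (8.95%; 5.4% higher, 3.55% lower) were called. A joint fit of all 66 libraries with the label and set terms, chosen after the data were seen, called 100 (1.99%; 59 higher, 1.18%, and 41 lower, 0.818%) and 809 at an unadjusted p under 0.05. It shares its label terms with the main comparison, and its count ranged from 51, without milder myriocin replicate 14, to 130, without rapamycin replicate 8. Of the 260 features higher in the main comparison, 237 had the same sign at milder inhibition in the joint fit and 34 were called there. Of the 244 lower, 235 had the same sign and 23 were called. Of all features tested, 50.1% were above 0 and 49.9% below 0 in that fit. In the fit of the 13 milder libraries alone, without a label term, 80% of the 260 had the same sign and 87 were called. Of the 244, 72.5% had the same sign and 36 were called, and of all features 51.4% were above 0 and 48.6% below 0.

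SER3 was among those also called at milder inhibition: its values were 104 to 238 (median 217) with rapamycin and 28.9 to 42.5 (median 36) with myriocin, a log2 difference of 2.05 ± 0.311 (SE; limma, adjusted p = 2.62e-05). HSP31 had 85.9 to 114 (median 99.4) against 34.3 to 82.1 (median 55.8), again without overlap (1.46). CHA1 at -1.79, MET16 at 1.35, MET10 at 1.52, STR3 at 1.85, MMP1 at 1.55, TIP1 at 1.24, BGL2 at 0.70, STI1 at 0.71, NOC2 at -1.53, YOR385W at -1.52, DIA1 at -1.39 and ARO10 at -0.97 were called too, and all kept the call whichever of the 66 libraries was left out. These are differences of the joint fit, with the label term. The milder NOC2 values themselves overlapped broadly, at 18.4 to 57.3 (median 21.2) with rapamycin and 16.7 to 87.1 (median 29.8) with myriocin. YJL133C-A (1.62) lost it without milder rapamycin replicate 2, and RCN1 (-1.37) lost it without milder myriocin replicate 14. PRM5 (1.81), BDH2 (-1.23), LEU4 (0.61), TOS2 (-0.97), ARG4 (1.02) and PDR5 (-0.78) were also called, and kept the call in 65, 64, 63, 63, 57 and 55 of 66 leave-outs. By list, in the joint fit, 11 of 31 sulfur genes rose with a median of 0.85, and 5 of 30 heat shock genes with a median of 0.46. In that fit 1.18% of all features rose. The ribosome assembly lists had medians of -0.65 and -0.69 in that fit, with 2 of 43 and 3 of 60 members called lower, where 0.818% of all features were. In the fit of the 13 milder libraries alone, without a label term, the ribosome assembly medians were -0.21 and -0.37. The sulfur and heat shock medians were 0.95 and 0.38 there.

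The difference between the inhibition levels was tested directly, as the main minus the milder log2 difference in the joint fit, which had no OD600 term. It was called for 26 features (0.518%; 17 positive, 0.339%, and 9 negative, 0.179%), with 498 at an unadjusted p under 0.05. GAP1 had 21.2 to 38.8 (median 21.9) with rapamycin and 3.94 to 20.2 (median 15.6) with myriocin at milder inhibition, without overlap. Its milder difference in the joint fit, with the label term, was 0.31 (limma, adjusted p = 0.786), and it differed between the levels by 2.10 ± 0.446 (adjusted p = 0.0108). CIT2 had 43.7 to 76.8 (median 55.3) against 25.4 to 98.9 (median 53.4), full overlap, and differed between the levels by 1.97 ± 0.404 (limma, adjusted p = 0.00841). HXT3 had 398 to 515 (median 427) against 217 to 414 (median 324) and differed between the levels by 0.98 ± 0.188 (limma, adjusted p = 0.00586). MEP2 (2.20), DIP5 (1.97), FIT3 (1.93), PYC1 (1.28), BAT2 (0.97), AGP1 (0.90) and LEU4 (0.78), the last of them called at both levels, were also larger at stronger inhibition, and MRPL31 (-1.10) and URA1 (-0.98) more negative.

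GAP1, CIT2 and HXT3 kept that call whichever library was left out. FIT3 lost it without milder rapamycin replicate 5, LEU4 without milder rapamycin replicate 4, and PYC1 without either of these. For MEP2 and AGP1 it held in 51 and 48 of 66 leave-outs, and for DIP5, MRPL31, URA1 and BAT2 in 63, 62, 61 and 60. The count of 26 ranged from 6, without milder rapamycin replicate 4, to 45, without rapamycin replicate 2. For the nitrogen list as a whole the milder median in the joint fit was -0.18, with 1 gene called lower and none higher, and for the retrograde list it was 0.17 with none called. These medians depended on the label term. In the fit of the 13 milder libraries alone, without that term, they were 0.21 and 0.05.

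**Figure D5:**
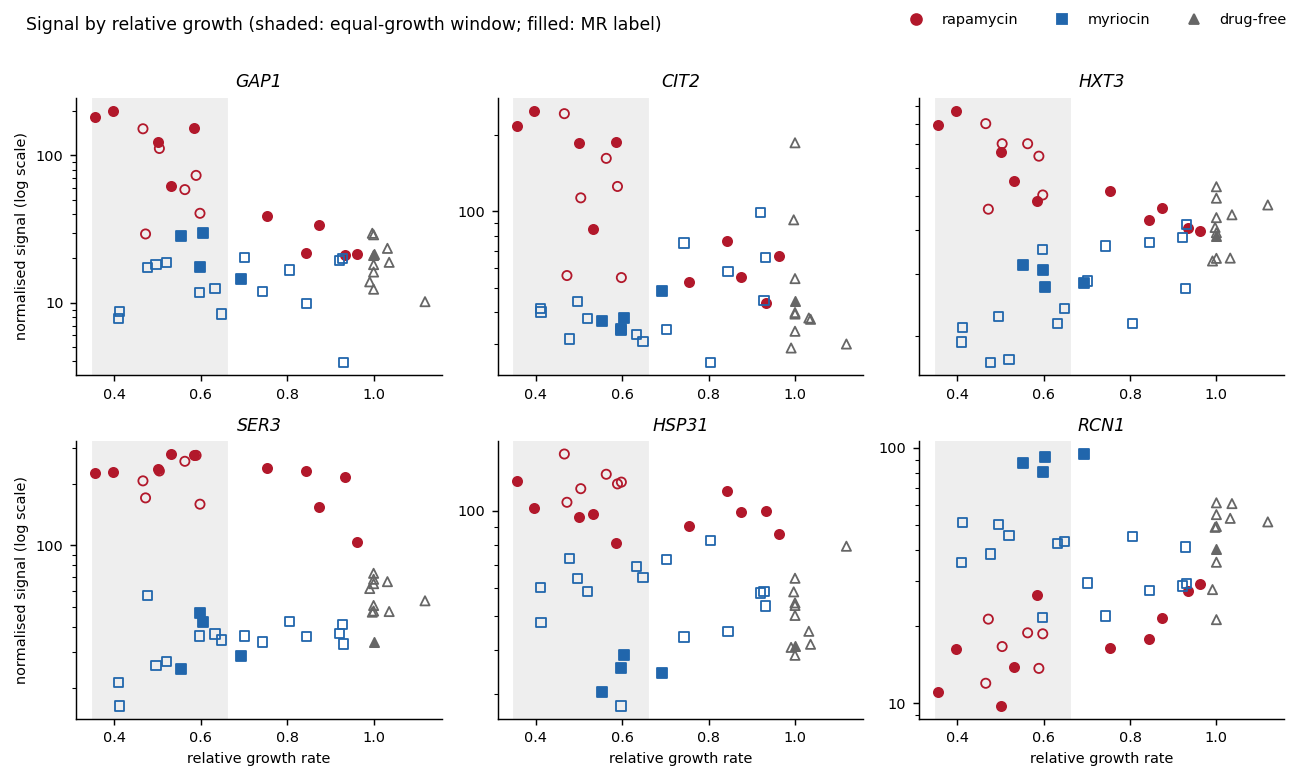
Normalised signal (log axis) of 6 genes against relative growth rate for rapamycin, myriocin and drug-free libraries, 1 point per library; the shaded band is the window of 0.35 to 0.66. CIT2 separates the drugs inside the window and overlaps above it. GAP1 meets at its edges inside the window, where its medians are 112 and 17.5, and separates above it, where they are 21.9 and 15.6, and SER3 separates the drugs at both levels.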

How the data were processed

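Polyadenylated RNA was fragmented, reverse-transcribed with barcoded poly(T) primers carrying a unique molecular identifier and sequenced, per the labels' protocols. TopHat, UMI-tools, featureCounts and build R64 are named in the submitters' processing notes; the sources used here give neither versions nor the strand setting. The deposited values are a normalised signal per feature with the same distribution in all 238 libraries, as read from the values, so a count test was not used. Each library's depth was estimated from the spacing of its low values, and counting error is covered only through the spread between libraries.

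Of 6717 features, 5015 reached a mean of 10 over the 238 libraries and entered the test, on log2(value + 1) with limma 3.58.1 (R 4.3.3; mean-variance trend) over 53 libraries: the 11 rapamycin, 11 myriocin and 11 drug-free ones and 10 cycloheximide and 10 LiCl libraries in the same growth window, with 42 residual degrees of freedom. Terms were the drug combination label and the growth-reference set (growth rate divided by relative growth, lower or higher). Calls needed a Benjamini-Hochberg adjusted p under 0.05 and 1.5-fold. On simulated data 81.5% of 200 genes changed by 1 log2 unit were recovered. Growth, OD600 and depth were compared by two-sided permutation tests (scipy 1.17.1). Combination wells were left out.

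Named genes were the 15 called genes with the largest and the 15 with the smallest difference at a mean of at least 30 over the 22 libraries and the same sign within MR and each set, up to 4 called members of each list by adjusted p, and a few fixed genes; 78 of them were followed in the text and its counts, with, for counts of 5 or fewer, further members. The members, lists and rule were chosen with earlier results of these data known. Promoter letters were read from the R64 genome. Alternatives covered the libraries and terms of the fit, pseudocount, filter, weights, growth window and each library left out. A gene included in the counts is not reported here.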

Additional observations from a re-analysis of the deposited data

Results flagged for a closer look

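In the 5 rapamycin libraries of the MR label, 5 of the 78 genes followed had 1 library that stood apart by Dixon's test, where chance flags about 1 gene in 20. The library apart had 91.6 for ARG4 (the gap was 0.887 of the range), 74.6 for MET10 (0.755), 51.6 for NOC2 (0.728), 11.4 for MRPL31 (0.768) and 58.6 for BDH2 (0.831); it was looked for in each gene on its own.

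The rapamycin minus myriocin difference itself differed between the inhibition levels, by the joint fit's test of the difference, for 12 named genes. The main minus milder log2 differences were 2.20 for MEP2, 2.10 for GAP1, 1.972 for DIP5, 1.965 for CIT2, 1.925 for FIT3, 1.28 for PYC1, 0.975 for HXT3, 0.968 for BAT2, 0.901 for AGP1, 0.775 for LEU4, -0.985 for URA1 and -1.098 for MRPL31. The milder rapamycin libraries were all of label MR and 7 of 8 milder myriocin libraries were of LM, so inhibition level and label overlap in these values, and their parts were not told apart beyond the label term. Final OD600 ran from 0.614 to 1.8785 in the milder rapamycin wells and from 0.5335 to 0.8145 in the main ones, and its part was not tested.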

How the results depend on the processing

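No paired analysis was possible because the labels give no replicate numbers shared between groups. The share of features called between rapamycin and myriocin, 10% (504), became 3.63% in the 22 rapamycin and myriocin libraries alone with the same terms, 6.4% (321) within the lower growth-reference set, 6.02% (302) with a pseudocount of 10 and 9.9% (296) with a mean of at least 30, where fewer features were tested; leaving out 1 library gave 8.41% (without LiCl replicate 1) to 11.1% (without cycloheximide replicate 1). The share at milder inhibition, 8.95% (449), became 9.77% (292) with a mean of at least 30 and 1.99% (100) in the joint fit, which was added after seeing the data; leaving out 1 library gave 5.58% (280, without milder rapamycin replicate 2) to 10.7% (537). Leaving out a library moved the growth difference between -0.0482 and -0.0202 and the OD600 difference between 0.136 and 0.173; within MR the OD600 difference was 0.167 with an exact permutation p of 0.179.

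Of the 69 called genes followed, 47 were called in every planned setting that tested them. Without each of 53 libraries in turn, 68, all but ORM2, were called. There were 18 planned settings, and the one with a mean of at least 30 tested 61 of the 69. Called were 55 among the 22 libraries alone, 59 within the lower set and 66 within MR. Signs turned for genes that were not called: LCB1 to 0.047 within the higher set, 0.006 in the 22 libraries without terms and 0.045 when these lacked the shallow ones (added after seeing the data), YPK1 to 0.131 within the higher set, TOR1 to -0.123 within the lower set, TOR2 to -0.095 within the higher set and -0.021 without the shallow ones, FPR1 to 0.039 in the 22 libraries with terms and 0.044 within MR, and URE2 to 0.021 within the higher set and 0.006 without myriocin replicate 9, where leaving out single libraries spanned -0.137 to 0.006. The cause was not tested. Depth limits rare transcripts such as RSA4, SSF1 and IMP4, which were at the lowest value in 3, 1 and 1 rapamycin libraries.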
